A study of Mus musculus with 8 samples.

Results

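The insulin-like growth factor (IGF) genes described here are the 10 mouse genes *Igf1*, *Igf2*, *Igf1r*, *Igf2r*, *Igfbp2*, *Igfbp3*, *Igfbp4*, *Igfbp5*, *Igfbp6* and *Igfbp7*. They were chosen by symbol from the ligands, receptors and binding proteins of this family, with earlier results of these data known. All 10 passed the filter on low counts, out of 16658 genes tested and 27179 genes counted. The binding protein gene *Igfbp1* is not among them and, with no more than 2 counts a library, was under the filter. RNA-seq was performed on whole uteri at postnatal day 10 (PD10), with 4 control libraries (Ctrl, genotype *Ezh2* f/f) and 4 libraries of *Ezh2 Amhr2*-Cre conditional knockout mice (cKO, genotype *Ezh2* f/f with *Amhr2*-Cre, which the labels call Acre). Both genotypes carry the floxed *Ezh2* allele, and the controls lack Cre. *Amhr2*-Cre acts in cells of mesenchymal origin in the female tract, so epithelial cells are not its target, and RNA of both cell populations was measured together. In such bulk tissue, fewer cells of a type and less RNA per cell cannot be told apart. The sources give 4 samples per genotype without saying that each came from a separate animal, so the p-values measure the spread between these libraries.

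IGF1 and IGF2 are secreted growth factors that act through the receptor tyrosine kinase IGF1R. IGF2R binds IGF2 and carries it to lysosomes, which removes it from the extracellular space, and the IGF binding proteins hold the ligands outside the cell and either extend or limit their action. In the uterus, stromal cells are known as a source of IGF1, whose receptor is on the epithelium, and *Igf2* and *Igf2r* are imprinted genes expressed from opposite parental alleles in most mouse tissues. EZH2 is the enzyme of polycomb repressive complex 2, which marks repressed chromatin and in mammals is found mostly at CpG-rich promoters.

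The libraries held 26234429 to 36685807 gene counts in controls and 25287141 to 32658315 in the cKO. *Ezh2*, counted over the whole gene and the whole uterus, was at 45.0 ± 8.70 CPM (counts scaled to library size) in controls and 36.8 ± 4.41 CPM in the cKO (mean ± SD, n = 4), with a log2 fold change of -0.29 (SE 0.13, adjusted p = 0.247) and libraries that overlapped. Markers of the uterine stroma (*Hoxa10*), smooth muscle and epithelium were detected in every library. Fat cell markers set 3 libraries apart. Their summed level was 103.4 to 113.8 CPM in controls, 281.1 to 512.5 CPM in cKO replicates 1 to 3 and 116.3 CPM in cKO replicate 4. Of the 11 fat markers, 8 were tested. Their log2 fold changes had a median of 5.32, and an unadjusted p under 0.05 was reached by all 8 in the edgeR fit and by 3 with limma-voom. Their call depended on the tool, with 1 (*Adrb3*) called by edgeR's quasi-likelihood test and by limma-voom and 8 by DESeq2 and the likelihood ratio test, while *Plin1* had 0 counts in control replicate 4 and *Lep*, *Retn* and *Ucp1* were under the filter. The summed level of 12 stroma markers ran from 10173 to 13227 CPM in controls and from 15166 to 15398 CPM in cKO replicates 1 to 3, and was 11974 CPM in cKO replicate 4. In that list *Col3a1* rose and *Hoxa10*, *Hoxa11* and *Amhr2* fell, and the median over the 12 log2 fold changes was -0.04. That is 33.3% called, against 5.34% of all genes. Limma-voom called 3, without *Col3a1*, DESeq2 called 6, and 0 were called with a fat marker score as covariate.

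Both IGF ligands, the IGF2-clearing receptor and *Igfbp5* were higher in the cKO, and *Igfbp6* was lower. At an adjusted p under 0.05 (edgeR's quasi-likelihood test, Benjamini-Hochberg over all genes tested), 5 of the 10 genes were called, 4 higher and 1 lower, against 5.34% of all genes tested (2.62% higher and 2.71% lower). The count was 3 without control replicate 1, 1 with a fat marker score as covariate and 0 in cKO replicate 4 alone, where the genes called in all went from 889 to 393, 104 and 35. These changes were moderate, between a 1.51-fold decrease and a 1.41-fold increase. None of the 10 was a DE gene with a fold change over 2, a status reached by 1.30% of all genes. This count of 0 was the same with DESeq2, limma-voom and edgeR's likelihood ratio test, and 6 of the 10 had an unadjusted p under 0.05, against 21.2% of all genes. The libraries of the genotypes did not overlap for 4 genes, 3 higher and 1 lower, against 12.3% of all genes (5.90% higher and 6.43% lower). The median log2 fold change of the 10 genes was 0.07, with 5 values above and 5 below 0, and their median absolute value was 0.25 against 0.12 over all genes.

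**Figure D1:**
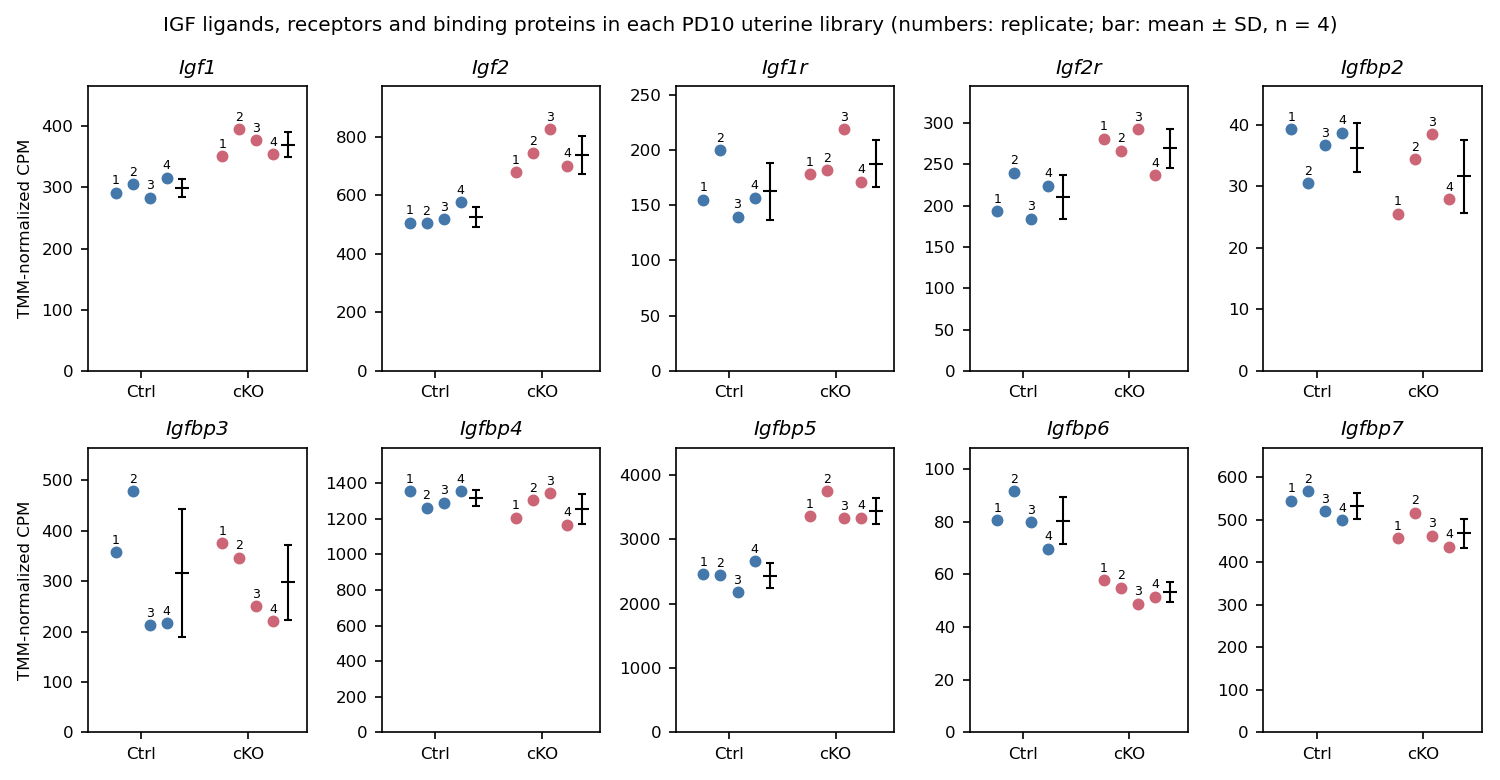
TMM-normalized CPM of the 10 IGF genes in each library (points, numbered by replicate), with the mean and SD of each genotype (n = 4); every axis starts at 0. The cKO points lie above all control points for *Igf1*, *Igf2* and *Igfbp5* and below them for *Igfbp6*, and the genotypes overlap for the other genes.

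The ligand *Igf1* (Entrez gene 16000, GRCm38 chromosome 10 from 87858265 to 87937047), the main mediator of growth hormone action, had normalized levels of 291, 305, 283 and 316 CPM in control replicates 1 to 4 and of 351, 395, 378 and 355 CPM in cKO replicates 1 to 4. Every cKO library was above every control library, and the values within a genotype stayed close together. The mean rose by 23.6%, from 299 ± 14.4 to 369 ± 20.6 CPM (SD, n = 4), with a log2 fold change of 0.31 (SE 0.06, adjusted p = 0.0109). The exact permutation test gave p = 0.0286, the smallest value that the 70 arrangements of 4 against 4 libraries allow. Without control replicate 1 the adjusted p of *Igf1* was 0.0517, at a log2 fold change of 0.29.

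The ligand *Igf2* (Entrez gene 16002, chromosome 7 from 142650768 to 142666816) is the fetal-type growth factor, normally expressed from the paternal allele and reduced after birth in most mouse tissues. It was at 506, 505, 519 and 578 CPM in the controls and at 680.1, 744, 825 and 701 CPM in the cKO. Again the lowest cKO library was above the highest control. The mean rose by 40.0%, from 527 ± 34.3 to 738 ± 64.1 CPM (SD, n = 4), with a log2 fold change of 0.48 (SE 0.07, adjusted p = 0.00186), and this call held with any single library left out. Within each library *Igf2* exceeded *Igf1* in CPM. The log2 ratio of *Igf2* to *Igf1* was 0.82 ± 0.07 in controls and 1.00 ± 0.09 in the cKO (SD, n = 4), a difference of 0.18 with libraries that did not overlap, and the exact permutation p of 0.0286 became 0.0571 after correction for the 4 ratios examined.

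The receptor *Igf2r* (Entrez gene 16004, chromosome 17 from 12682406 to 12769706) was at 193, 240.1, 184 and 224 CPM in the controls and at 281, 267, 292 and 237 CPM in the cKO. The groups overlapped at one point, where cKO replicate 4 lay below control replicate 2. The mean rose by 27.9%, from 211 ± 26.2 to 269 ± 23.8 CPM (SD, n = 4), with a log2 fold change of 0.36 (SE 0.09, adjusted p = 0.0403) and an exact permutation p of 0.0571. This was the least firm of the 5 calls. It was lost without control replicate 1 (adjusted p = 0.136), control replicate 3 (0.0991), cKO replicate 1 (0.119), cKO replicate 2 (0.0835) or cKO replicate 3 (0.114), with log2 fold changes of 0.30 to 0.36 in these fits.

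The signalling receptor *Igf1r* (Entrez gene 16001, chromosome 7 from 67952257 to 68233668) was at 155, 199.7, 139.7 and 157 CPM in the controls and at 178, 182, 219 and 171 CPM in the cKO, with overlapping groups. Its log2 fold change of 0.20 (SE 0.11) did not pass the test (adjusted p = 0.309). Control replicate 2 was the highest control, and without it *Igf1r* was called at a log2 fold change of 0.32 (adjusted p = 0.0419). Without cKO replicate 3 the value was 0.12 (adjusted p = 0.582), and without control replicate 3 it was 0.14. The ratios of ligand to receptor did not differ between genotypes beyond their spread. The log2 ratio of *Igf1* to *Igf1r* was 0.89 ± 0.19 in controls and 0.98 ± 0.14 in the cKO (exact permutation p = 0.514, n = 4), and that of *Igf2* to *Igf2r* was 1.33 ± 0.18 and 1.45 ± 0.12 (p = 0.314, corrected p = 0.419, n = 4).

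*Igfbp5* (Entrez gene 16011, chromosome 1 from 72858065 to 72874865), a binding protein that also attaches to extracellular matrix, was among the most abundant transcripts of the uterus, ranking between 5 and 17 by counts across the libraries. It was at 2459, 2442, 2175 and 2660.0 CPM in the controls and at 3357, 3746, 3323 and 3334 CPM in the cKO. All cKO libraries were above all controls, and cKO replicate 2 was the highest of the 8. The mean rose by 41.3%, from 2434 ± 199 to 3440.1 ± 204 CPM (SD, n = 4), with a log2 fold change of 0.50 (SE 0.07, adjusted p = 0.00154), a call that held with any single library left out. *Igfbp5* supplied 39.9% to 43.5% of the counts of the 10 genes in controls and 46.3% to 49.8% in the cKO, and the 10 genes together 0.547% to 0.607% and 0.666% to 0.763% of all counts.

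*Igfbp6* (Entrez gene 16012, chromosome 15 from 102144186 to 102149512) encodes the binding protein that prefers IGF2 over IGF1. It was at 80.5, 91.6, 79.8 and 69.7 CPM in the controls and at 57.9, 55.0, 48.8 and 51.5 CPM in the cKO, with no overlap. The mean fell by 33.7%, from 80.4 ± 8.98 to 53.3 ± 3.95 CPM (SD, n = 4), with a log2 fold change of -0.59 (SE 0.08, adjusted p = 0.00115). It was the one gene of the 10 that fell past the threshold, in the opposite direction to its preferred ligand, and it also passed with any single library left out.

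The other 4 binding protein genes were not called. *Igfbp2* (chromosome 1 from 72824480 to 72852474) lies 5590 bases from *Igfbp5*, and was at 39.2, 30.6, 36.7 and 38.7 CPM in controls and 25.6, 34.4, 38.5 and 28.0 CPM in the cKO. Its log2 fold change was -0.20 (SE 0.13, adjusted p = 0.391), and -0.11 without cKO replicate 1 and -0.31 without cKO replicate 3. Within each library the log2 ratio of *Igfbp5* to *Igfbp2* was 6.07 ± 0.19 in controls and 6.78 ± 0.26 in the cKO (SD, n = 4). The libraries did not overlap in this ratio, and its difference of 0.71 had an exact permutation p of 0.0286, or 0.0571 after correction. *Igfbp7* (chromosome 5 from 77349240 to 77408045), which binds IGFs weakly, was at 545, 567, 519.9 and 498 CPM in controls and at 457, 516, 462 and 436 CPM in the cKO, with a log2 fold change of -0.19 (SE 0.07, adjusted p = 0.122). Its groups overlapped through cKO replicate 2 alone. *Igfbp4* (chromosome 11 from 99040005 to 99052655), usually an inhibitor of IGF action, was at 1354, 1262, 1289.5 and 1355 CPM in controls and 1205, 1303, 1341 and 1166 CPM in the cKO, with a log2 fold change of -0.07 (SE 0.06, adjusted p = 0.554). *Igfbp3* (chromosome 11 from 7206086 to 7215498), the main carrier of IGFs in blood, was at 357, 479, 213 and 217 CPM in controls and 376, 346, 250.3 and 221 CPM in the cKO. Its control libraries spanned a 2.25-fold range, and the log2 fold change of -0.09 (SE 0.32, adjusted p = 0.908) was smaller than its error.

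**Figure D2:**
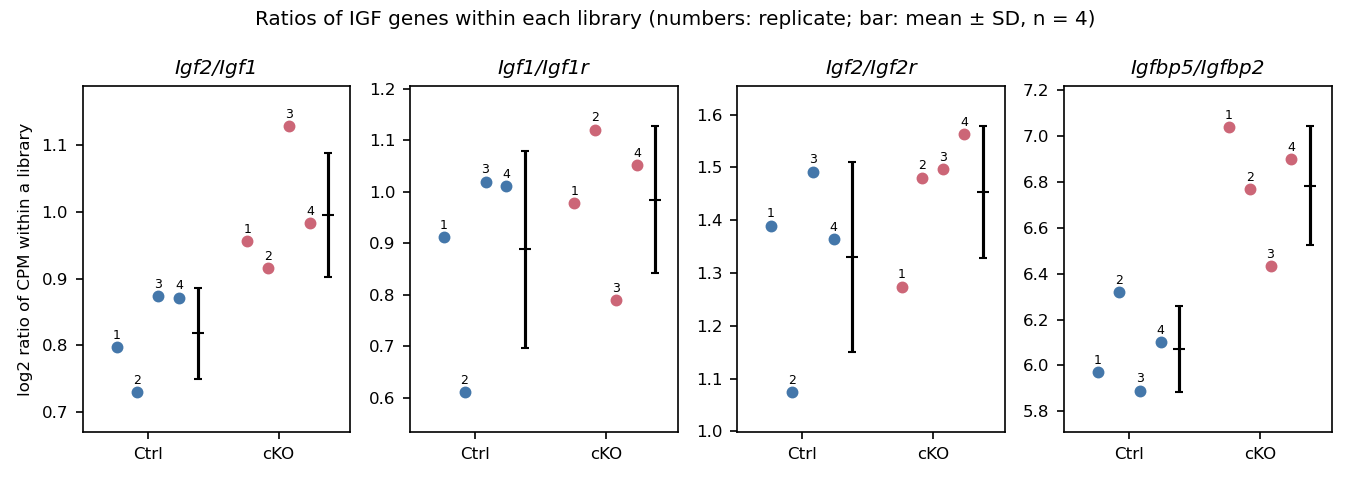
Log2 ratios of CPM within each library for 4 pairs of IGF genes (points, numbered by replicate; bars, mean and SD, n = 4; the axes do not start at 0). The genotypes do not overlap for *Igf2/Igf1* and *Igfbp5/Igfbp2* and overlap for the 2 ratios of ligand to receptor.

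Per length of exon, *Igfbp7*, *Igfbp5* and *Igfbp4* had the highest levels of the family in both genotypes and *Igf1r* the lowest mean, while *Igfbp2* lay below both ligands. In controls the mean level was 441 CPM per kb for *Igfbp7*, 405 for *Igfbp5*, 335 for *Igfbp4*, 101 for *Igfbp3*, 100.4 for *Igf2*, 72.3 for *Igfbp6*, 30.2 for *Igf1*, 24.9 for *Igfbp2*, 23.7 for *Igf2r* and 14.3 for *Igf1r*. The ranges of 4 libraries overlapped between the neighbours *Igfbp7* and *Igfbp5*, *Igfbp3* and *Igf2*, and *Igfbp2* and *Igf2r*, and were separate between the other neighbours. In the cKO *Igfbp5* came first at 573 CPM per kb, with its libraries above those of *Igfbp7* at 387, and *Igf2* at 141 was above *Igfbp3* at 95.3. *Igf2r* at 30.3 CPM per kb was above *Igfbp2* at 21.6, whose range overlapped that of *Igf1r* at 16.4.

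**Figure D3:**
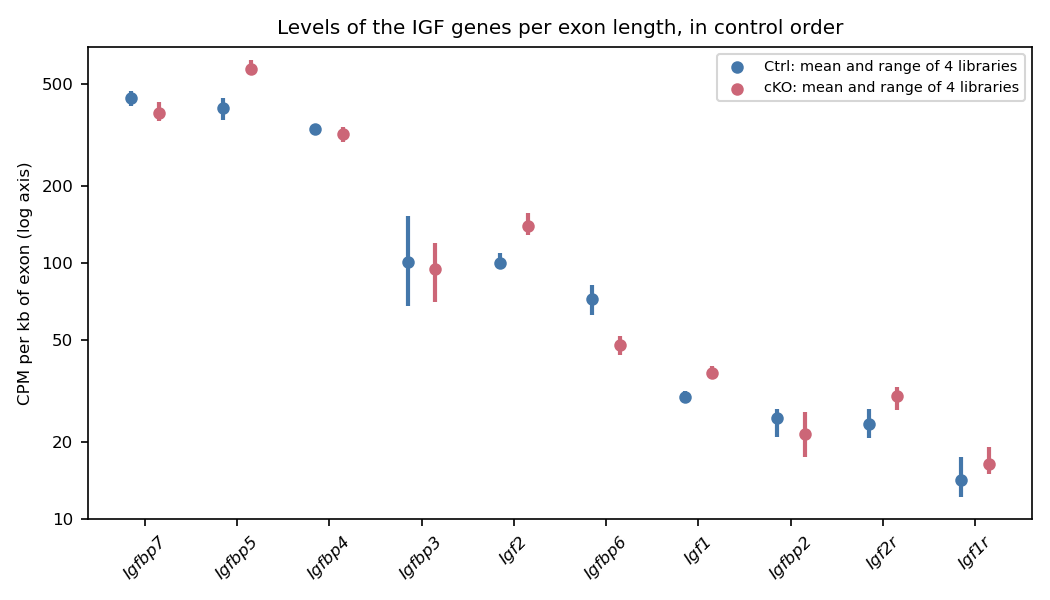
Mean level per kb of exon (log axis) of each IGF gene in controls and cKO, with lines from the lowest to the highest of 4 libraries. *Igfbp5* stands second to *Igfbp7* in controls (405 and 441 CPM per kb) and above it in the cKO (573 and 387).

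The promoters of the called genes differ widely in CpG content. In a window from 250 bases before to 50 bases after the start site (RefSeq, GRCm38.p6), *Igf2r* holds 34 CG, a number that 7.73% of 32851 mouse promoters reach, *Igfbp5* holds 10 (43.5%), *Igfbp6* holds 8 (48.6%) and *Igf1* holds 6 (56.4%). The median promoter holds 7, and the letters CG occur in 94.6% of promoters. The 4 start sites of *Igf2* hold 2, 14, 24 and 7 CG. The start sites used for *Igf1* (87861111), *Igfbp3* (7213923) and *Igfbp4* (99041244) lie inside the gene, and no window at its outer edge was examined. All 120 bases before that of *Igf1* lie in annotated exons. The richest window of the family, with 48, was that of *Igf1r*, which was not called, followed by *Igfbp3* with 37, not called, the called *Igf2r* with its 34, and *Igfbp7* with 33 and *Igfbp4* with 27, not called. The letters TATAAA, searched on both strands, occur in the windows of *Igfbp4* and *Igfbp6* and in 13.6% of all promoters. The bases just after each start were also sought in GENCODE transcripts of the gene. They were not found for *Igf2r*, *Igfbp6*, *Igf1r* and *Igfbp7*, whose windows rest on the RefSeq start alone. The 120 bases before the start site are shown for 4 of the called genes, where they lie outside or almost outside annotated exons, 5′ to 3′ on the strand of the gene and with every CG in capitals, to set the CG-rich *Igf2r* promoter beside those with fewer CG.
*Igf2r*, chr17:12769707-12769826, minus strand, 15 CG: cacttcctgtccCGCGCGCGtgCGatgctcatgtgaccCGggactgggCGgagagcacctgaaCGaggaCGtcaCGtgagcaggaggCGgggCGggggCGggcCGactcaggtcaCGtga
*Igf2*, chr7:142666817-142666936, minus strand, 1 CG: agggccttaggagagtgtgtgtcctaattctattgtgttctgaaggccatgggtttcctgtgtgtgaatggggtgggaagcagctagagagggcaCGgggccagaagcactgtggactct
*Igf2*, chr7:142657497-142657616, minus strand, 4 CG: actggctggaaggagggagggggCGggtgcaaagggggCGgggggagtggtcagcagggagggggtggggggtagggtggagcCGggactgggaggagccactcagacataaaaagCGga
*Igfbp5*, chr1:72874866-72874985, minus strand, 4 CG: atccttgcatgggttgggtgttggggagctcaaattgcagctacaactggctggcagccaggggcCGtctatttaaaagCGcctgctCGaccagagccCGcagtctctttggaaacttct
*Igfbp6*, chr15:102144066-102144185, plus strand, 3 CG: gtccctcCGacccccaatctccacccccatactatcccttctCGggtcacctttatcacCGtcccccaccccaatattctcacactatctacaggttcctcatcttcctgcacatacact

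Several of the nearest neighbours of the called genes were hardly expressed. *Tyms-ps* beside *Igf1*, *Ins2* beside *Igf2*, *Tnp1* beside *Igfbp5* and *Soat2* beside *Igfbp6* were under the filter. Among tested neighbours, *H19*, a maternally expressed noncoding RNA 72621 bases from *Igf2*, rose with a log2 fold change of 0.38 (SE 0.08, adjusted p = 0.0235), while *Spryd3* beside *Igfbp6* (-0.05, adjusted p = 0.684) and *Mas1* beside *Igf2r* (0.73, adjusted p = 0.228) were not called. The antisense transcript *Igf2os* overlaps *Igf2* and rose by a log2 fold change of 0.67 (SE 0.14, adjusted p = 0.0188) at no more than 166 counts a library, and *Airn*, antisense to *Igf2r*, had 0.33 (SE 0.09, adjusted p = 0.0611) at no more than 766 counts. The strand setting of the counting is not given in the sources used here, so reads of each gene and its antisense partner cannot be told apart. The counts of *Igf2* (13067 to 26782 a library) and *Igf2r* (5167 to 9488) were far above those of the partners. The end of *Igfbp7* likewise overlaps *Polr2b*.

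The genes whose profiles over the 8 libraries were most like each called gene were sought among 14446 genes, by the root mean square difference of centred log2 CPM. Nearest to *Igf1* were *Sertad2* (0.05), *Hspa12a* (0.05) and *Tceanc* (0.05), and nearest to *Igf2* were *Ntrk2*, a neurotrophin receptor (0.06), *Ttll13* (0.08) and *Adamts17* (0.08). *Igf2r* was closest to *Zfp703* (0.06), *Cdh4* (0.06) and *Eppk1* (0.07). *Igfbp5* was closest to the basement membrane collagen *Col4a6* (0.06), the heparan sulfate editing enzyme *Sulf2* (0.07) and *Rerg* (0.08). *Igfbp6* was closest to *Myo3b* (0.04), *Gstm1* (0.07) and *Cygb* (0.07).

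Genes that act on the family were read from lists grouped by role. Among 16 tested proteases, carriers and inhibitors of the binding proteins, 1 rose and 3 fell (25.0% called, against 5.34% of all genes), with a median log2 fold change of 0.02. With a fat marker score as covariate 1 of this list (*Adam12*) was called, and 0 in cKO replicate 4 alone, where 5 had an unadjusted p under 0.05. *Pappa2*, a protease that cleaves IGFBP5 and IGFBP3, rose from 11.3 ± 2.82 to 18.6 ± 2.66 CPM (SD, n = 4; log2 fold change 0.72, SE 0.17, adjusted p = 0.0284). *Adam12*, a metalloprotease with IGFBP3 and IGFBP5 among its substrates, fell from 81.4 ± 10.4 to 50.8 ± 6.22 CPM (-0.68, SE 0.10, adjusted p = 0.00305). The serine proteases *Plat* (-0.45, SE 0.08, adjusted p = 0.00637) and *Htra1* (-0.35, SE 0.06, adjusted p = 0.00834) fell too. *Pappa2* lost its call when control replicate 1 or 4, or any of cKO replicates 1 to 3, was left out, at adjusted p-values of 0.0545 to 0.0881, and with the replicate number as a block (0.0555). The related protease *Pappa* and its inhibitors *Stc1* and *Stc2*, which were picked out with their results known, were not called, at log2 fold changes of 0.09, 0.06 and 0.04.

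Among insulin-type receptors and the signalling genes downstream, 2 of 32 tested genes were called, both higher, a share of 6.25% that is near the 5.34% of all genes. *Irs4*, an adaptor of the insulin receptor substrate family, rose from 20.9 ± 1.92 to 37.3 ± 4.06 CPM (SD, n = 4; log2 fold change 0.83, SE 0.09, adjusted p = 0.000249), and its highest control, at 23.0 CPM, was below its lowest cKO library, at 32.2 CPM. *Insrr*, the insulin receptor-related receptor, rose from 4.31 ± 0.64 to 7.72 ± 1.60 CPM (0.84, SE 0.17, adjusted p = 0.0114). The widely expressed members of the same families, *Insr* (0.04), *Irs1* (-0.11) and *Irs2* (-0.07), named after their values were seen, did not pass. Of the 11 genes that carry growth hormone or steroid input to *Igf1*, 0 were called by edgeR, DESeq2 or limma-voom and 3 had an unadjusted p under 0.05, a level that 21.2% of all genes reached (*Ghr* 0.21, *Stat5a* 0.28 and *Pgr* -0.31 as log2 fold changes).

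In a list of 12 tested genes that holds *Igf2* messenger RNA-binding proteins, the growth-related chromatin genes *Hmga1* and *Hmga2* and imprinted growth genes, 6 rose and 0 fell, against 2.62% and 2.71% of all genes. Of this list 2 genes were called with a fat marker score as covariate and 1 in cKO replicate 4 alone, the fits described at the end. The median over the 12 was 0.36 on the log2 scale, and 2 of the 6 were DE genes. *Igf2bp1*, which encodes an oncofetal RNA-binding protein named for its binding to *Igf2* transcripts, rose from 0.716 ± 0.176 to 5.44 ± 0.969 CPM (SD, n = 4; log2 fold change 2.91, SE 0.21, adjusted p = 1.36e-05). Its highest control was at 0.978 CPM and its lowest cKO library at 4.19 CPM. *Igf2bp2* (-0.08, adjusted p = 0.541) and *Igf2bp3* (0.37, adjusted p = 0.228) were not called. *Dlk1*, an imprinted gene whose protein restrains fat cell differentiation, rose from 135.6 ± 17.7 to 286 ± 24.5 CPM (1.08, SE 0.09, adjusted p = 6.68e-05). Imprinted *Peg3* (0.51), *H19* (0.38) and *Cdkn1c* (0.36), and *Hmga2* (0.27), a chromatin protein of embryonic growth, rose by less. *H19* and *Cdkn1c* lost their calls when control replicate 1 or 3, or cKO replicate 2 or 3, was left out (adjusted p of 0.0556 to 0.0798 and of 0.0685 to 0.0915), and *Hmga2* without control replicate 1, 3 or 4 or cKO replicate 3 (0.0643 to 0.125). Among 9 tested cysteine-rich relatives of the binding proteins, the matricellular genes *Ccn3* (0.63, adjusted p = 0.0179) and *Ccn4* (0.42, adjusted p = 0.0353) rose. That is 22.2% called, against 5.34% of all genes, and 0 of this list were called with the fat marker score as covariate. *Ccn3* was lost without control replicate 1 or cKO replicate 1 or 3 (0.0538 to 0.0604), and *Ccn4* without control replicate 1 or any one cKO replicate (0.0588 to 0.113).

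**Figure D4:**
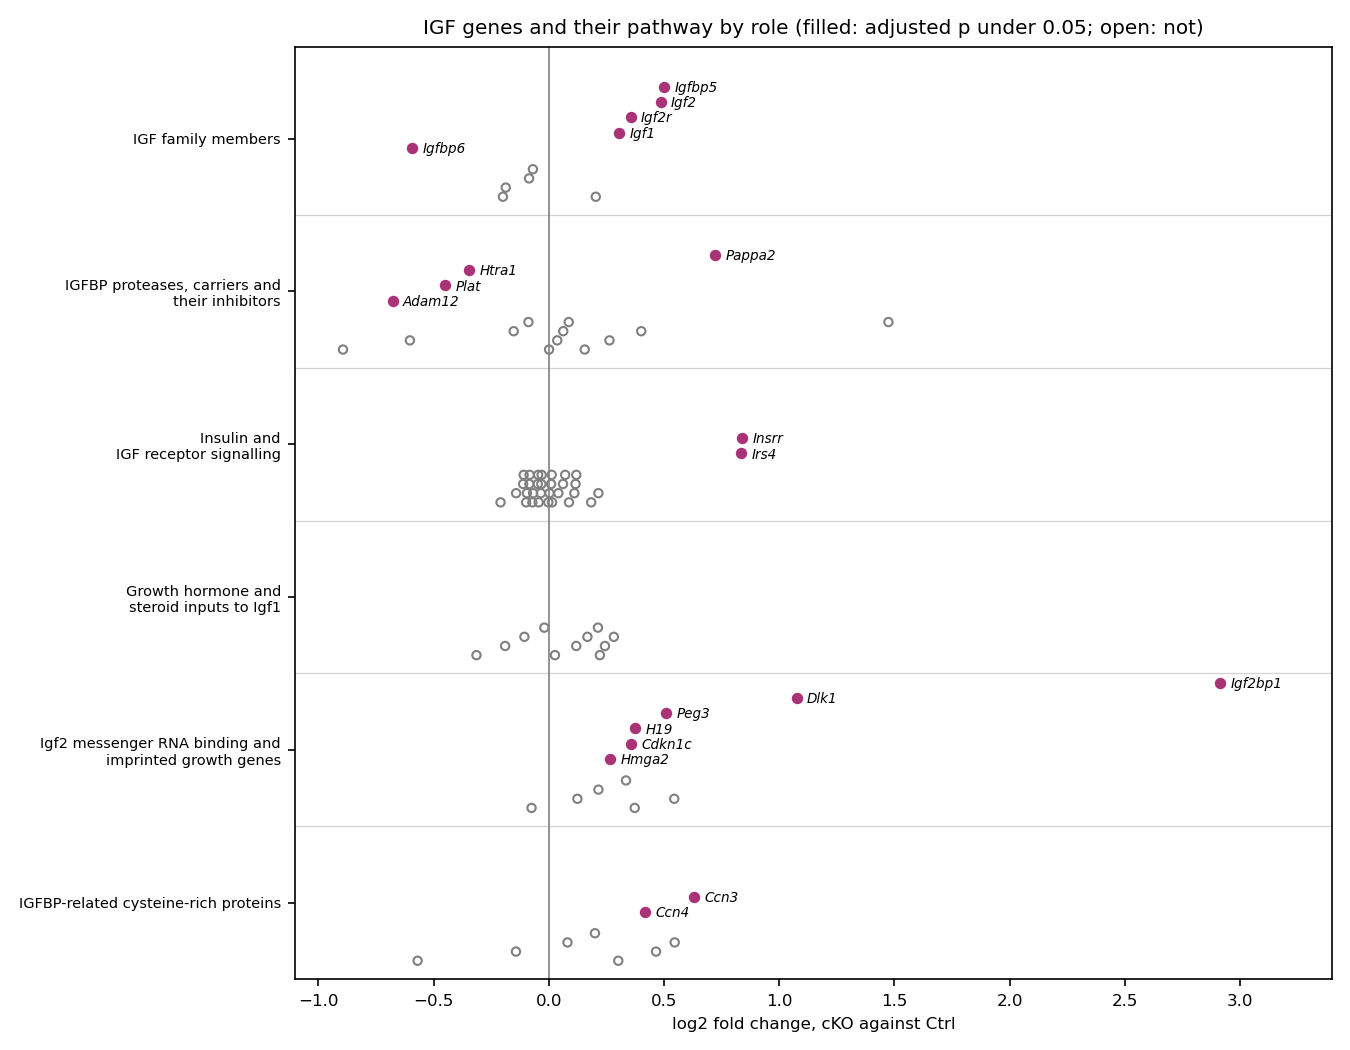
Log2 fold change, cKO against Ctrl, of each tested gene of the family and of the 5 lists grouped by role; filled points are named and have an adjusted p under 0.05, open points do not, and height within a row carries no value. *Igf2bp1* lies farthest out at 2.91, and the called IGF genes lie between -0.59 and 0.50.

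Since the summed CPM of fat cell and of stroma markers was high in cKO replicates 1 to 3, the family was also read in cKO replicate 4, whose sums were near or within the control range. Its epithelium marker sum, 1740 CPM, was the highest of the 8 libraries, above the controls at 1266 to 1506 CPM, and the part of this in the values below was not tested. *Igf1* at 355 CPM, *Igf2* at 701 CPM and *Igfbp5* at 3334 CPM lay above all controls there and *Igfbp6* at 51.5 CPM below all of them, while *Igf2r* at 237 CPM lay within their range. In a fit of cKO replicate 4 against the 4 controls, which assumes that the lone library varies like the controls, log2 fold changes were 0.26 for *Igf1*, 0.42 for *Igf2*, 0.46 for *Igfbp5*, -0.63 for *Igfbp6* and 0.18 for *Igf2r*. None of the 10 was called in that fit and 6 had an unadjusted p under 0.05, with 35 genes called in all. With a fat marker score as a covariate the values were 0.25, 0.44, 0.46, -0.68 and 0.20 in the same order, and *Igfbp6* alone was called (adjusted p = 0.0401) among 104 genes. Of the 14 pathway genes called in the fit of all 8 libraries, 4 were called with the covariate and 2, *Irs4* and *Igf2bp1*, in both fits. *Insrr* went from 0.84 to 0.53 with the covariate (adjusted p = 0.489) and 0.56 in cKO replicate 4 alone, and *Ccn3* from 0.63 to 0.39 (adjusted p = 0.551) and 0.39. Of the other genes that lost their call with the covariate, *Pappa2* (0.72 to 0.54), *Plat* (-0.45 to -0.37) and *Peg3* (0.51 to 0.48) had smaller changes. Larger changes were seen for *Htra1* (-0.35 to -0.44), *Ccn4* (0.42 to 0.58), *H19* (0.38 to 0.46), *Hmga2* (0.27 to 0.36) and *Cdkn1c* (0.36 to 0.38). The part of fat content in these values was not tested.

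**Figure D5:**
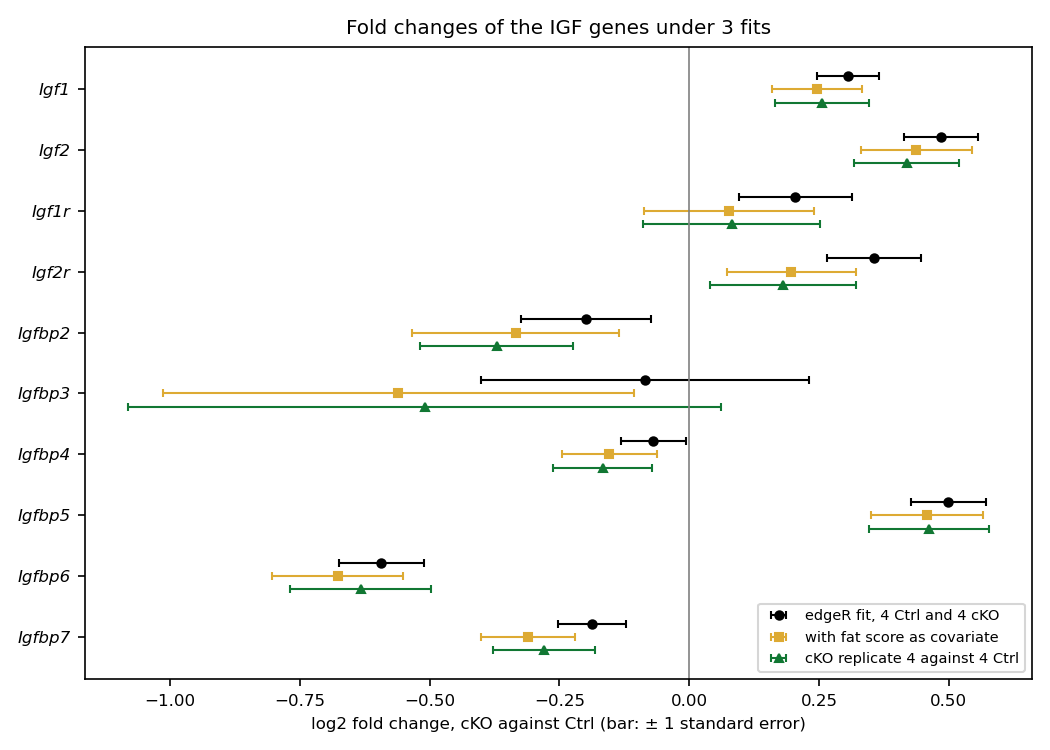
Log2 fold change of each IGF gene (point) with its standard error (bar) in the edgeR fit of all 8 libraries, with the fat marker score as covariate, and in cKO replicate 4 against the 4 controls. Over the 3 fits *Igf1* moves from 0.31 to 0.25 and 0.26, and *Igf2* from 0.48 to 0.44 and 0.42. *Igfbp5* moves from 0.50 to 0.46 and 0.46, and *Igfbp6* from -0.59 to -0.68 and -0.63. *Igf2r* moves from 0.36 to 0.20 and 0.18, and *Igf1r* from 0.20 to 0.08 and 0.08. *Igfbp2* moves from -0.20 to -0.33 and -0.37, and *Igfbp3* from -0.09 to -0.56 and -0.51. *Igfbp4* moves from -0.07 to -0.15 and -0.17, and *Igfbp7* from -0.19 to -0.31 and -0.28.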

How the data were processed

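The members and all gene lists were chosen with earlier results of these data known. The kit was TruSeq stranded mRNA. The authors trimmed reads with Trimmomatic, checked them with FastQC, aligned them to GRCm38 with HISAT2 and deposited raw featureCounts counts per Entrez gene; tool versions, the annotation release and the strand setting are not given in the sources used here. A deposited table of the authors' own comparison (fold changes, p-values) was used for gene symbols only, and a deposited table of log2 values was not used.

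Counts were analysed in R (version 4.3.3) with the packages edgeR (4.0.16), limma (3.58.1) and, as an alternative, DESeq2 (1.42.0). A gene entered the test where 4 or more libraries exceeded 0.2 CPM. The model was glmQLFit with glmQLFTest (robust = TRUE, TMM scaling, prior count 0.125), with Benjamini-Hochberg adjustment over 16658 genes. A gene was called at an adjusted p under 0.05, and was a DE gene where its fold change was also over 2. The SE is the log2 fold change divided by the square root of F. Single values were compared by exact two-sided permutation tests (70 arrangements) of log2 values, with 0.1 CPM added for single genes. Code for the tests was tested on simulated data. Levels per kb used the union of protein-coding exons of GENCODE vM21, and coordinates came from RefSeq. Genes with no count have a limit of 0.0824 to 0.117 CPM (3 counts, counting error only). The 28 library pairs had a chi-square per gene of 7.80 to 31.8, so none was a duplicate.

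Named were the 10 members, up to 5 called genes of each role list by smallest p (and *Hmga2*, the sixth of its list, after its value was seen), called genes of the marker lists discussed, *Ezh2*, the nearest neighbours and the 3 most alike genes of each called member (mean of at least 1 CPM, profiles of log2(CPM + 0.1)); *Igf2os*, *Airn*, *Polr2b* and list genes that were not called were named after their values were seen. Some neighbours are not reported here. *Klk1*, *Igfbp1*, *Lin28a*, *Lin28b*, *Ins2* and *Ccn5* were under the filter. Of the marker lists not described above, summed CPM ran in controls and cKO from 7502 to 9533 and 8330 to 9532 (smooth muscle, 0 of 8 called), 1266 to 1506 and 1420.0 to 1740 (epithelium, *Foxa2* of 9), 706 to 902 and 732 to 919 (endothelium, 0 of 8), 132 to 208 and 139 to 184 (macrophages, 0 of 8), 46.2 to 78.0 and 41.6 to 66.4 (skeletal muscle, *Myh3* and *Tnnt3* of 6) and 58.0 to 66.5 and 49.7 to 63.4 (ovary and oviduct, 0 of 5). In the edgeR fit 2, 2, 0 and 3 genes of the lists with 0 calls had an unadjusted p under 0.05; DESeq2 called 1, 0, 0 and 1 of them and limma-voom 0 of each. The alternatives were other scalings and filters, DESeq2, limma-voom, the likelihood ratio test, robust = FALSE, a replicate block, a fat score covariate (mean log2 CPM of the 8 tested fat markers), cKO replicate 4 alone, and leaving out each library.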

Additional observations from a re-analysis of the deposited data

Results flagged for a closer look

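Within a genotype of 4 libraries, Dixon's criterion for a single distant value (0.829 of the range) was exceeded in 4 of 56 groups examined, where chance alone gives about 1 in 20. *Igfbp5* was at 3746 CPM in cKO replicate 2, apart from the other 3 cKO libraries (gap of 0.92 of the range), which was also the library with the highest fat marker sum, 512.5 CPM. *Igf2bp1* was at 0.978 CPM in control replicate 1, above the other controls (0.86). *Hmga2* was at 41.0 CPM in control replicate 1, below the other controls (0.89), and its call was lost without that library (adjusted p = 0.125). *Peg3* was at 100.9 CPM in cKO replicate 3, above the other cKO libraries (0.85). The part of depth, tissue composition or handling in these values was not tested.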

How the results depend on the processing

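The same 5 IGF genes (*Igf1*, *Igf2*, *Igf2r*, *Igfbp5* and *Igfbp6*) were called with each other scaling, each filter, DESeq2, limma-voom, the likelihood ratio test, robust = FALSE and the replicate block. The same-number correlations of deviations were 0.07, 0.16, -0.04 and 0.26, and 1 of 4 replicates was most like its own number. Control replicates 1, 2, 3 and 4 were most like cKO replicates 2, 1, 4 and 4. Whether the numbers mark pairs or batches cannot be told from these values and was not tested. The block gave 5 IGF genes and 1240 genes in all. Its test of the ratios flips the signs of 4 paired differences, and cannot reach a p under 0.05. The adjusted p-values of that test were 0.25, 0.625, 0.5 and 0.25 for the 4 ratios. Of all genes, 889 were called, 1510 with DESeq2 and 1512 with the likelihood ratio test. The fat score covariate, which nearly follows genotype in 7 libraries, left 1 IGF gene, 4 of 14 other pathway genes and 104 genes in all, and cKO replicate 4 alone left 0, 2 and 35 with fewer samples. Leaving out 1 library gave 3 (without control replicate 1) to 6 (without control replicate 2) IGF genes called, 8 to 17 pathway genes, 393 (without control replicate 1) to 1773 (without cKO replicate 4) genes in all and 4 to 6 IGF genes without overlap. The log2 ratio differences then ran from 0.13 to 0.20 for *Igf2/Igf1*, 0.0039 to 0.16 for *Igf1/Igf1r*, 0.04 to 0.18 for *Igf2/Igf2r* and 0.63 to 0.83 for *Igfbp5/Igfbp2*. The log2 fold change of *Igfbp3* ran from -0.23 to 0.18 with 1 library left out, above 0 without control replicate 2 (0.18) or cKO replicate 4 (0.03), was -0.56 with the fat score covariate and -0.51 in cKO replicate 4 alone, and was not called. The other IGF genes kept their direction in all 20 alternatives. The causes were not tested. With 4 libraries a group the smallest uncorrected p of the exact permutation test was 0.0286, so a single separated ratio could not pass the correction over 4. The separated *Igf2/Igf1* and *Igfbp5/Igfbp2* could not pass together either, at 0.0571 after correction.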

Other observations

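*Igfbp3* varied more within genotypes than between them, and in a like way in both. Replicates 1 and 2 were at 357 and 479 CPM in controls and 376 and 346 CPM in the cKO, and replicates 3 and 4 at 213 and 217 and at 250.3 and 221 CPM. The summed level of 8 macrophage markers was 178, 208, 132 and 145 CPM in control replicates 1 to 4 and 184, 175, 163 and 139 CPM in cKO replicates 1 to 4. Summed smooth muscle, stroma and skeletal muscle markers were likewise higher in replicates 1 and 2 than in replicates 3 and 4 of both genotypes. Epithelium markers were lower there, and the sums of the remaining lists did not split this way in both genotypes. All were set side by side after the values were seen, and their relation was not tested.

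The log2 ratio of *H19* to *Igf2*, neighbours in one imprinted cluster, was also looked at after the values were seen. It ran from 0.97 to 1.09 in controls and from 0.82 to 1.05 in the cKO (1.03 ± 0.06 and 0.92 ± 0.10, SD, n = 4), with overlapping libraries, while the level of each gene rose.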
